A study of Mus musculus with 6 samples.

Results

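Solute carriers are membrane proteins that move nutrients, ions and metabolites across the plasma membrane or across the membranes of organelles. The genes described here carry an Slc symbol in the platform annotation and had a mean log2 signal of at least 8 over the 6 arrays, without the mitochondrial Slc25 and the nucleotide sugar Slc35 families. Of 334 genes with such a symbol, 143 reached a mean of 8, 28 of these belonged to Slc25 or Slc35, and 3 more were among the 6 genes left out by name (Slc7a11, Slc14a1, Slc12a2, Slc11a2, Slc40a1 and Slc10a2). The remaining 112 genes and Slc1a3, which was added by name below the level of 8, made 113 members of 19505 genes measured. Slc28a1 was also named in the choice of members, and its mean of 8.18 reached the level only through the CSN8fl/fl samples. Because Slc1a3 and Slc28a1 were chosen for their difference between genotypes, their values are given as a description, and 111 members were tested. Just inside the level stood Slc30a2 (mean 8.06) and Slc4a1ap (mean 8.08), and just outside it Slc4a2 (7.99) and Slc5a6 (7.96).

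RNA came from small intestinal crypts of C57bl/6 mice, obtained by scraping off the villi and loosening the crypts with EDTA. The CSN8ΔIEC group (3 samples) was compared with the CSN8fl/fl group (3 samples). CSN8fl/fl denotes a Cops8 gene flanked by loxP sites, and the name CSN8ΔIEC denotes its deletion in intestinal epithelial cells, for which the labels name no Cre driver. In each genotype, replicates 1 and 2 were labelled female and 16 weeks old, and replicate 3 was labelled male and 10 weeks old. The study asked whether loss of CSN8, a subunit of the COP9 signalosome, impairs the production of antimicrobial peptides. The labels do not say whether each replicate was a separate mouse, so the p-values cover the spread among these samples, which may be technical in part, and may not cover that among mice.

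Each sample was read on 1 array as RMA log2 signals, and precision is limited by having 3 arrays a genotype. The targeted gene, Cops8, had log2 signals of 7.68, 7.61 and 7.77 in CSN8ΔIEC samples, against 8.26, 8.22 and 8.10 in CSN8fl/fl samples. The 3 CSN8ΔIEC values lay below the 3 CSN8fl/fl values, with a difference of -0.50 ± 0.11 (SE) on the log2 scale and an adjusted p of 0.0865 by limma. Pairwise correlations between libraries over all genes were 0.976 to 0.993. The tissue label was borne out by signals of enterocyte, Paneth, goblet and stem cell markers in all libraries, and the sample is a mixture of these cells. In such bulk RNA, fewer cells of a type and less RNA per cell cannot be told apart.

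Absorptive enterocytes take up sugars, amino acids, peptides, phosphate and vitamins at the apical, lumen-facing membrane, mostly through carriers coupled to sodium or protons, and release them at the basolateral membrane towards the blood. Most of these apical carriers are known to increase as cells leave the crypt and mature on the villus, while carriers for amino acids such as leucine and glutamine are also used by dividing crypt cells for growth. From textbook knowledge, 74 of the 113 members act mainly at the plasma membrane, 19 at both kinds of membrane or at one that is not settled, and 17 mainly in organelles. A further 3, Slc4a1ap, Slc7a6os and Slc9a3r1, carry an Slc symbol without being carriers, so a plasma membrane label holds for most members but not for all.

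In CSN8ΔIEC crypts, the imino acid carrier gene Slc6a20a and the glutamate carrier gene Slc1a1 fell, and the sugar carrier relative Slc5a4b rose. These 3 genes, 2.7% of the 111 tested members, passed an adjusted p of 0.05 (limma, Benjamini-Hochberg over all 19505 genes), beside 1.08% of all genes. The 2 members that fell were 1.8% of those tested, beside 0.702% of all genes, and the 1 member that rose was 0.901%, beside 0.374% of all genes. With counts of 2 and 1, these shares are not read as a property of the carriers. At an unadjusted p below 0.05 by limma stood 27 members, or 24.3%, beside 15.0% of all genes. Among the 27 were Slc30a2, Slc4a1, Slc5a9, Slc6a20b and Slc4a1ap, which reached the mean of 8 through 1 genotype only, a choice that favours a difference. The members were chosen by signal level, which all genes were not, so the 15.0% is not matched to them. Of the 6868 genes with a mean of at least 8, 53 fell, 40 rose and 1322 had an unadjusted p below 0.05. The 24.3% is therefore not read as a property of the carriers.

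Differences below 0 were more frequent than differences above 0 among the members. All CSN8ΔIEC values lay below all CSN8fl/fl values for 23 tested members (20.7%), beside 11.7% of all genes. The opposite order was seen for 7 tested members (6.31%), beside 10.7% of all genes. Of the tested members, 4 reached the level of 8 only through CSN8fl/fl (Slc30a2, Slc4a1, Slc5a9 and Slc6a20b, all among the 23) and 2 only through CSN8ΔIEC (Slc4a1ap, among the 7, and Slc23a4), a choice that favours a difference. Of the 105 whose mean reached it in both genotypes, 19 were lower and 6 were higher without overlap. Of the 6868 genes with a mean of at least 8 over the 6 arrays, 1023 were lower and 1148 were higher without overlap. The median log2 difference, CSN8ΔIEC minus CSN8fl/fl, was -0.06 over the 113 members, -0.06 over the 111 tested and -0.01 over all genes. Of the 113, which include Slc1a3 and Slc28a1, 66 were below 0 and 47 above 0. Slc6a20a, Slc1a1 and Slc5a4b were the 3 tested members that differed by more than 2-fold in size, and for 46 of the 113 members the difference was smaller than the pooled SD of the replicates.

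The values of 1 library stood apart. Replicate 3 of CSN8fl/fl held the highest of the 6 values for 57 of the 113 members (50.4%), beside 23.8% of all genes. The median of the members' deviations from their own means was 0.19 in that library, and between -0.10 and 0.01 in the other 5. Without it, the median difference was -0.03 and 63 members were below 0, while the median was -0.12 without replicate 1 and -0.13 without replicate 2 of CSN8fl/fl. Without replicate 3 of CSN8fl/fl, groups did not overlap for 27 tested members that were lower (24.3%, beside 16.8% of all genes) and for 15 that were higher (13.5%, beside 15.0% of all genes). The size of the members' lean thus depends on which CSN8fl/fl libraries are used.

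**Figure D1:**
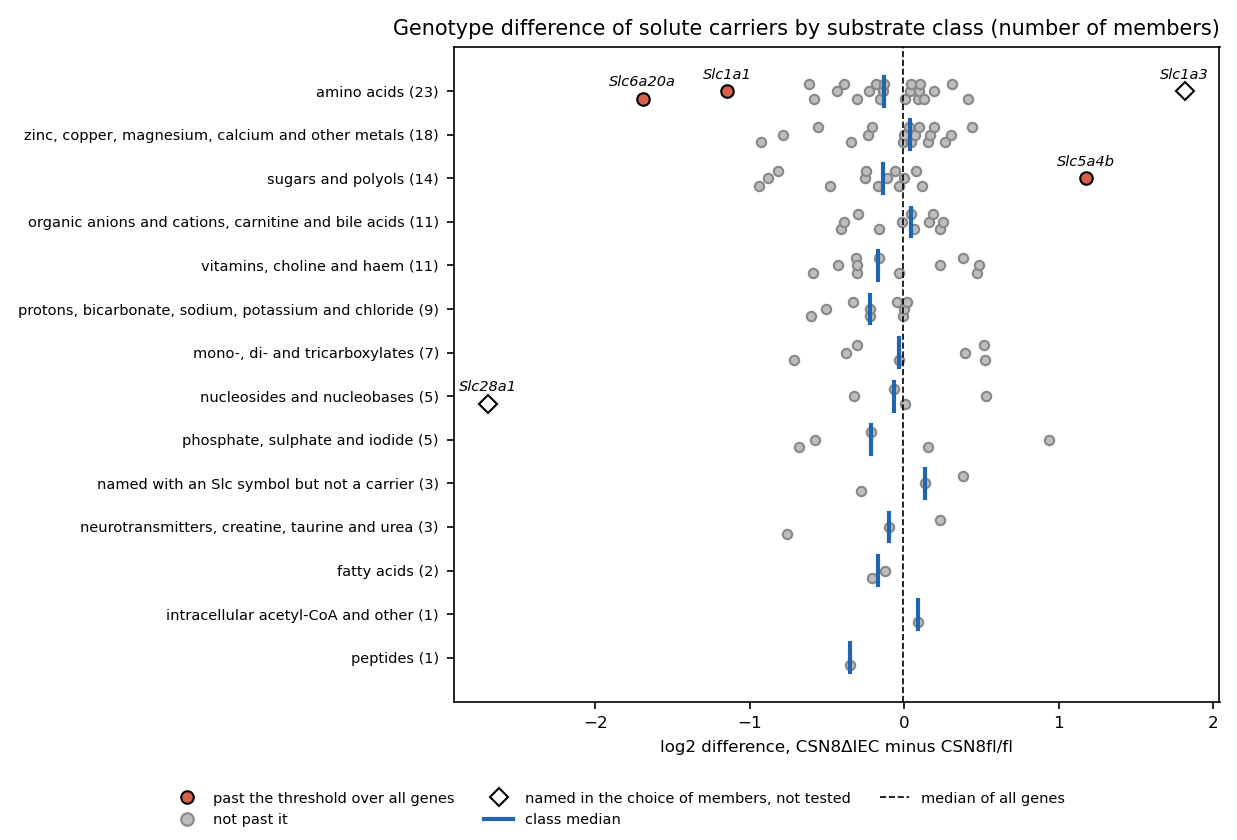
Log2 difference of each member (x axis, CSN8ΔIEC minus CSN8fl/fl) by substrate class (y axis, number of members in brackets), with the class median as a blue bar and the median of all genes as a dashed line. Slc6a20a (-1.70), Slc1a1 (-1.15) and Slc5a4b (1.17) are the tested members past the threshold, and the untested Slc1a3 (1.81) and Slc28a1 (-2.69) are drawn as diamonds.

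Amino acid carriers were the largest class, with 23 members. Of the 22 tested, 2 fell, 0 rose and 5 had an unadjusted p below 0.05 by limma. For such counts here and in the later classes, the share of all genes was 15.0%, and no class count is read as an excess. The class median was -0.13, both over the 23 members and over the 22 tested. Over the 23 it was -0.02 without replicate 3 of CSN8fl/fl. It was -0.06 without replicate 1 of CSN8ΔIEC, and -0.16 to -0.14 without any other library. A few members stood far from the class median.

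Slc6a20a encodes an apical carrier of imino acids such as proline in the small intestine and kidney. Its log2 signals were 9.66, 9.87 and 9.49 in CSN8ΔIEC samples, against 11.23, 11.43 and 11.46 in CSN8fl/fl samples. The groups were separated by a gap several times wider than the range within either of them. The gene fell by 1.70 ± 0.14 (SE) on the log2 scale, a 3.24-fold change in size, with an adjusted p of 0.00244 by limma. It also passed the threshold in each fit that left out 1 library, where its highest adjusted p was 0.0141.

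Slc6a20b lies next to Slc6a20a on chromosome 9 with no annotated gene between them, and encodes a close relative. Its signals were 7.86, 8.03 and 8.04 in CSN8ΔIEC samples, against 8.54, 8.43 and 8.81 in CSN8fl/fl samples. The CSN8ΔIEC values were again all lower, with a difference of -0.62 ± 0.14 and an adjusted p of 0.0797 by limma, short of the threshold. Leaving out genes with a mean signal below 6 brought it to 0.0489. How far probes of the 2 related genes bind RNA of the other is unknown here, so the Slc6a20b values are uncertain. The gene also reached the level of 8 only through CSN8fl/fl, a choice that favours a lower value in CSN8ΔIEC, so its p-values are not read as support.

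Slc1a1 encodes a sodium-coupled carrier of glutamate, aspartate and cysteine. Its signals were 9.14, 9.24 and 9.31 in CSN8ΔIEC samples, against 10.14, 10.40 and 10.59 in CSN8fl/fl samples. The replicates of CSN8ΔIEC were close together, and all stood below the lowest CSN8fl/fl sample. The gene fell by 1.15 ± 0.14 on the log2 scale, a 2.21-fold change in size, with an adjusted p of 0.00996 by limma. Without replicate 1 of CSN8ΔIEC the adjusted p was 0.0601.

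Slc1a3 encodes another sodium-coupled carrier of glutamate and aspartate, best known from astrocytes. Its signals were 7.04, 6.56 and 7.60 in CSN8ΔIEC samples, against 5.57, 5.05 and 5.13 in CSN8fl/fl samples. The groups did not overlap, and the difference was 1.81 on the log2 scale, or 3.52-fold in size, the opposite sign to Slc1a1. The gene was picked for this difference, which is why no test is given.

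The genes past the threshold, and Slc6a20b short of it, are set beside the starts of their transcripts, to show how unlike these are in sequence. The windows are RefSeq promoters on build GRCm38.p6, each running from 250 bases before to 50 bases after the transcript start, written 5′ to 3′ on the gene's strand with CpG dinucleotides in capitals. They are chr9:123678783-123679082 (minus strand) for Slc6a20a, chr9:123632489-123632788 (minus strand) for Slc6a20b, chr19:28834885-28835184 (plus strand) for Slc1a1 and chr10:76110969-76111268 (minus strand) for Slc5a4b, which is described further on.
Slc6a20a: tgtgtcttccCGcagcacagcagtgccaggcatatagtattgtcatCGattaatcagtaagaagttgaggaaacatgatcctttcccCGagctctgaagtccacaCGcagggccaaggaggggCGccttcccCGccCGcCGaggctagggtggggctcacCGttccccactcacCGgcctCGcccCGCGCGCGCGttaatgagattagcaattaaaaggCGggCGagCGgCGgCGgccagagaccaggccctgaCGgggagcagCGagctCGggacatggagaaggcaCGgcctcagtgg
Slc6a20b: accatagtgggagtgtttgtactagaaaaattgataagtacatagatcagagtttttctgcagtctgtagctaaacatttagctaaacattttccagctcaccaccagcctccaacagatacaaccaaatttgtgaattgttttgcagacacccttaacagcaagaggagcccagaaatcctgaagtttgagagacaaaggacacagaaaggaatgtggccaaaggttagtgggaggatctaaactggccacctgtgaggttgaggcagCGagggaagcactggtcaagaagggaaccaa
Slc1a1: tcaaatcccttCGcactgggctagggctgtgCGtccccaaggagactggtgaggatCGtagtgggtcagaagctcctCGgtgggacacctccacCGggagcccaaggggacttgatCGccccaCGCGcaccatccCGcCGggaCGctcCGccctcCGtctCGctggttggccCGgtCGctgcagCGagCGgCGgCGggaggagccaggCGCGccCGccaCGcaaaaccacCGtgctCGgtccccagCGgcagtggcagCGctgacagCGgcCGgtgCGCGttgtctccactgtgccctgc
Slc5a4b: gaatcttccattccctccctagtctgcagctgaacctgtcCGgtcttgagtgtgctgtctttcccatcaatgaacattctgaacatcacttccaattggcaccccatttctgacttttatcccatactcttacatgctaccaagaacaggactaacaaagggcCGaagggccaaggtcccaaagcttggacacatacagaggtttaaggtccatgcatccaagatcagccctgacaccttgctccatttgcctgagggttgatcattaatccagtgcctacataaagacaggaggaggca

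The Slc6a20a window held 25 CpG and had a GC content of 62.3%, whereas that of its neighbour Slc6a20b held 1 CpG at 44.0%. The Slc1a1 window was the richest of these 4, with 32 CpG and a GC content of 70.3%. The Slc5a4b window held 2 CpG at 48.0%. Over all 32851 RefSeq promoters of this length the median was 7 CpG and 52.7%, and over the 114 promoters matched for 89 members it was 16.5 CpG and 60.7%. Both genes that fell past the threshold had CpG-rich starts, and the gene that rose had a CpG-poor one. The start of Slc6a20b, which was lower short of the threshold, was CpG-poor too. No link between CpG content and direction is read from these 4 windows.

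Short motifs known from intestinal gene control were searched on both strands, and were picked after the windows had been looked at. GTTAAT, the HNF1 half-site, was in the Slc6a20a window at positions -56 to -51 from the transcript start, and is held by 7.1% of all promoters and by 11 of the 114 member promoters. TTTATG, the CDX core, was in the Slc5a4b window on the other strand at positions 30 to 35, and is held by 11.9% of all promoters and by 5 member promoters. GATA sites were searched in the spelling AGATAA alone, and other spellings, such as the TGATAA in the Slc6a20b window, were not counted. None of the 4 windows held AGATAA, which is in 11.2% of all promoters and 10 member promoters. The same was true of TGACNNNGC, the antioxidant response core, which is in 12.4% of all promoters and 17 member promoters. The TATA box, searched as TATAAA, was also in no window, and is in 13.6% of all promoters and 10 member promoters. On its other strand TTTATG shares all letters but the first with that last motif. A match describes letters in a window only.

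**Figure D2:**
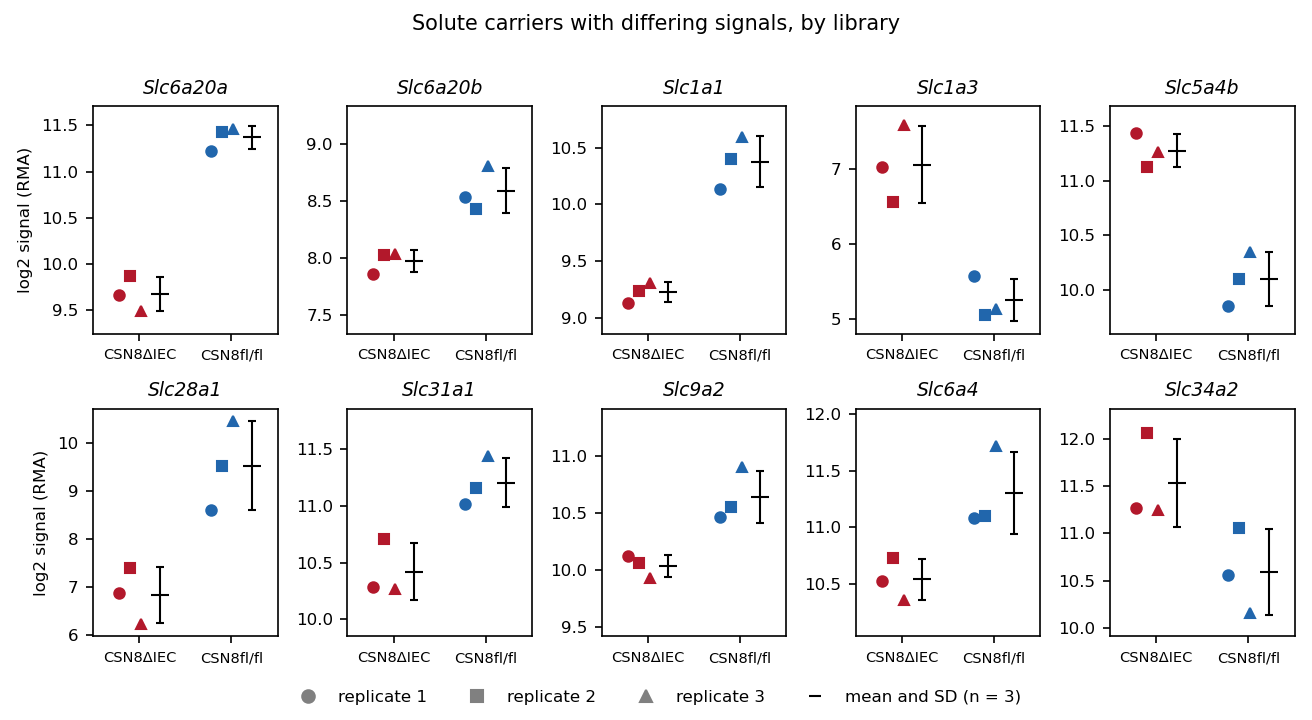
Log2 RMA signal (y axis, own scale for each gene) of 10 carriers in each CSN8ΔIEC and CSN8fl/fl library, with the mean and SD of each genotype (n = 3). Slc6a20a, Slc6a20b and Slc1a1 lie lower in every CSN8ΔIEC library, Slc5a4b and Slc1a3 higher, and Slc34a2 is higher with a spread between replicates that nearly closes the gap.

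Of the other amino acid carriers, the apical pair Slc7a9 and Slc3a1 exchange cystine and basic amino acids, and Slc6a19 takes up most neutral amino acids. Slc7a9 had signals of 9.58, 10.19 and 9.65 in CSN8ΔIEC samples, against 10.24, 10.15 and 10.80 in CSN8fl/fl samples. The groups overlapped slightly, the difference was -0.59 ± 0.22 and the adjusted p was 0.254 by limma. Slc6a19 had 11.36, 11.97 and 11.60 in CSN8ΔIEC samples, against 11.70, 11.48 and 12.43 in CSN8fl/fl samples. Its difference of -0.23 (adjusted p 0.707 by limma) turned to 0.05 without replicate 3 of CSN8fl/fl. The glycine carrier gene Slc6a9 differed by -0.13 (0.696), and Slc36a1, a proton-coupled carrier of small amino acids, by -0.39 (0.55).

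Slc7a8, a basolateral exchanger of neutral amino acids, had 11.09, 11.39 and 11.35 in CSN8ΔIEC samples, against 11.69, 11.47 and 11.98 in CSN8fl/fl samples, with no overlap between the groups. Its difference was -0.44 ± 0.16, with an adjusted p of 0.245 by limma. Slc7a7, which exports basic amino acids, differed by -0.31 (adjusted p 0.413), and Slc43a2, a facilitated carrier of large neutral amino acids, by -0.19 (0.644).

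Slc7a5, the leucine exchanger that pairs with Slc3a2, had 8.81, 8.50 and 9.08 in CSN8ΔIEC samples, against 8.16, 8.35 and 8.65 in CSN8fl/fl samples. The groups overlapped, and its difference was 0.41 ± 0.18 (adjusted p 0.336 by limma). The glutamine carrier gene Slc1a5 differed by 0.31 (0.424) and the arginine and lysine carrier gene Slc7a1 by 0.19 (0.491), while Slc3a2 itself, the heavy chain shared by several exchangers, differed by -0.14 (0.678). Among 11 amino acid carriers known as targets of ATF4, the transcription factor of the amino acid stress response, 6 were members. By limma 0 of these passed the threshold, 0 had an unadjusted p below 0.05, 4 were above 0, and their median difference was 0.10.

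In the sugar and polyol class of 14 members, 1 rose, 0 fell and 5 had an unadjusted p below 0.05. The class median was -0.14 with 11 members below 0, and -0.01 with 7 below 0 when replicate 3 of CSN8fl/fl was left out. The members of this class were highest in that library in 9 of 14 cases.

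Slc5a4b belongs to the sodium-glucose cotransporter family, and the human member closest to it has been described as a glucose sensor rather than a carrier. Its signals were 11.43, 11.13 and 11.26 in CSN8ΔIEC samples, against 9.85, 10.10 and 10.35 in CSN8fl/fl samples. Every CSN8ΔIEC value exceeded every CSN8fl/fl value by more than the range within either group. The gene rose by 1.17 ± 0.15 on the log2 scale, a 2.25-fold change in size, with an adjusted p of 0.0129 by limma. Without replicate 1 of CSN8ΔIEC the adjusted p was 0.0761, and without replicate 3 of CSN8fl/fl the difference was 1.30.

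Its paralog Slc5a4a, with 1 gene between the pair on chromosome 10, had a mean of 7.84 and so was no member. Slc5a4a had 7.69, 7.70 and 7.71 in CSN8ΔIEC samples, against 7.47, 7.57 and 8.88 in CSN8fl/fl samples. Replicate 3 of CSN8fl/fl stood far above the other 5 libraries, which lay within a narrow range. The difference was -0.27 (adjusted p 0.731 by limma) and 0.18 without that library. The contrast between the 2 genes was not tested, and binding of RNA of one gene by probes of the other was not separated.

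The main carriers of dietary sugar did not pass the test. Slc5a1, the apical sodium-glucose cotransporter, had signals of 12.71, 12.81 and 12.66 in CSN8ΔIEC samples, against 12.80, 12.60 and 13.29 in CSN8fl/fl samples. Slc2a2, the basolateral glucose and fructose carrier, had 12.20, 12.69 and 12.39 in CSN8ΔIEC samples, against 12.35, 12.01 and 13.09 in CSN8fl/fl samples. The groups of both genes overlapped, with differences of -0.17 ± 0.18 (adjusted p 0.681) and -0.06 ± 0.26 (adjusted p 0.934) by limma.

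Slc2a5, the apical fructose carrier, had 10.36, 10.36 and 10.19 in CSN8ΔIEC samples, against 10.75, 10.64 and 12.17 in CSN8fl/fl samples. The groups did not overlap, but replicate 3 of CSN8fl/fl stood well above all other libraries. The difference was -0.89 ± 0.35 (adjusted p 0.282 by limma), and -0.40 without that library. Slc2a7, a related hexose carrier, showed the same order, with -0.48 ± 0.19 (0.28).

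Other members of the class with lower values were carriers of less common sugars. Slc5a9, which carries mannose and fructose, had 7.79, 8.07 and 8.04 in CSN8ΔIEC samples, against 8.48, 8.69 and 9.56 in CSN8fl/fl samples. It reached the level of 8 only through CSN8fl/fl, a choice that favours a lower value in CSN8ΔIEC. The inositol carrier gene Slc5a11 had 7.96, 8.81 and 7.82 in CSN8ΔIEC samples, against 8.84, 8.83 and 9.39 in CSN8fl/fl samples. Neither group pair overlapped, and the differences were -0.94 ± 0.25 (adjusted p 0.133) and -0.82 ± 0.26 (adjusted p 0.197) by limma. Slc2a13, a proton-coupled inositol carrier gene, differed by -0.26 (0.388).

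Nucleoside and nucleobase carriers numbered 5, of which 4 were tested. By limma 0 of the 4 passed the threshold and 0 had an unadjusted p below 0.05. Slc28a1 encodes the sodium-coupled carrier of pyrimidine nucleosides. Its signals were 6.88, 7.40 and 6.21 in CSN8ΔIEC samples, against 8.60, 9.51 and 10.46 in CSN8fl/fl samples. The groups did not overlap, and the difference was -2.69, or 6.47-fold in size, and -2.23 without replicate 3 of CSN8fl/fl, given with no test because the gene was picked for it.

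Slc28a2, its purine-preferring relative, had the widest spread of the members, with a pooled SD of 0.96. Its signals were 8.88, 10.46 and 9.26 in CSN8ΔIEC samples, against 9.50, 8.99 and 11.08 in CSN8fl/fl samples. The 2 highest libraries came from different genotypes, and the difference of -0.33 ± 0.54 (adjusted p 0.813 by limma) was within the spread. Slc23a4, a nucleobase carrier gene studied in rats, differed by 0.53 (0.425), and the lysosomal nucleoside carrier gene Slc29a3 by -0.06 (0.829).

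Metal carriers, with 18 members, had a median difference of 0.03, and -0.04 without replicate 3 of CSN8fl/fl. By limma 0 passed the threshold and 5 had an unadjusted p below 0.05. Slc31a1, the high-affinity copper importer, had signals of 10.29, 10.71 and 10.26 in CSN8ΔIEC samples, against 11.01, 11.16 and 11.44 in CSN8fl/fl samples. Its groups did not overlap, with a difference of -0.78 ± 0.17 and an adjusted p of 0.0699 by limma. That p was 0.0477 without genes of a mean below 6 and 0.0379 with a variance prior that follows the signal level, so its call depends on these settings.

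Slc41a2, a magnesium carrier, had 8.35, 8.74 and 8.29 in CSN8ΔIEC samples, against 9.18, 9.05 and 9.93 in CSN8fl/fl samples, with no overlap. The difference was -0.93 ± 0.23, with an adjusted p of 0.113 by limma. Slc30a2, a vesicular zinc carrier that reached the level of 8 only through CSN8fl/fl, differed by -0.56 (0.207). Zinc carrier genes of the plasma membrane showed smaller differences of either sign. These were 0.17 for Slc39a4, the apical importer (adjusted p 0.591 by limma), 0.44 for Slc39a10 (0.322) and 0.15 for the exporter gene Slc30a1 (0.73). Slc39a5, the basolateral importer, was lower in every CSN8ΔIEC library, with a difference of -0.34 (0.285). Slc30a5, which loads zinc into the secretory pathway, was higher in every CSN8ΔIEC library, by 0.19 (0.487).

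The 9 carriers of protons, bicarbonate, sodium, potassium and chloride had a median of -0.22 with 8 below 0. Without replicate 3 of CSN8fl/fl the median was -0.02 with 7 below 0. By limma 0 passed the threshold and 2 had an unadjusted p below 0.05. Slc9a2, an apical sodium-proton exchanger, had 10.13, 10.06 and 9.93 in CSN8ΔIEC samples, against 10.47, 10.56 and 10.90 in CSN8fl/fl samples. The groups did not overlap, and the difference was -0.61 ± 0.14 (adjusted p 0.0983 by limma). Slc9a3, the main apical sodium-proton exchanger of absorptive cells, had 10.75, 11.26 and 10.54 in CSN8ΔIEC samples, against 10.75, 11.50 and 11.80 in CSN8fl/fl samples, with overlap and a difference of -0.51 ± 0.28 (0.43). The sodium-bicarbonate cotransporter gene Slc4a4 differed by -0.22 (0.477), and Slc4a1, the anion exchanger of red cells and kidney, by -0.34 (0.28). Slc4a1 reached the level of 8 only through CSN8fl/fl.

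Phosphate and sulphate carriers, 5 members with a median of -0.22 (-0.10 without replicate 3 of CSN8fl/fl), held differences of both signs. By limma 0 passed the threshold and 2 had an unadjusted p below 0.05. Slc34a2, the apical sodium-phosphate cotransporter, had signals of 11.27, 12.06 and 11.25 in CSN8ΔIEC samples, against 10.56, 11.06 and 10.17 in CSN8fl/fl samples. The groups were separated by a small gap, with replicate 2 the highest in each genotype. The difference was 0.93 ± 0.27, with an adjusted p of 0.159 by limma.

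Slc20a1, a sodium-phosphate carrier of most cells, averaged 8.10 ± 0.10 in CSN8ΔIEC samples and 8.67 ± 0.67 in CSN8fl/fl samples (SD, n = 3 each), with its highest value of 9.42 in replicate 3 of CSN8fl/fl. The groups overlapped, and the difference was -0.58 ± 0.29 (adjusted p 0.391 by limma). Its relative Slc20a2 differed by 0.16 (0.573). The sulphate carrier gene Slc13a1 had 11.49, 11.79 and 12.07 in CSN8ΔIEC samples, against 12.52, 12.06 and 12.80 in CSN8fl/fl samples, with a minimal overlap and a difference of -0.68 ± 0.21 (0.186).

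Among the 3 carriers of neurotransmitters, creatine and taurine, by limma 0 passed the threshold and 1 had an unadjusted p below 0.05. That gene was Slc6a4, which clears serotonin released by enteroendocrine cells. Its signals were 10.53, 10.73 and 10.37 in CSN8ΔIEC samples, against 11.08, 11.10 and 11.72 in CSN8fl/fl samples. The groups did not overlap, and the difference was -0.76 ± 0.19 (adjusted p 0.113 by limma). The creatine carrier gene Slc6a8 differed by -0.10 (0.868) and the taurine carrier gene Slc6a6 by 0.23 (0.46).

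Carriers of mono-, di- and tricarboxylates, 7 members with a median of -0.04 (0.01 without replicate 3 of CSN8fl/fl), were also split in sign. By limma 0 passed the threshold and 3 had an unadjusted p below 0.05. Slc16a6, a member of the monocarboxylate carrier family, had 8.48, 8.66 and 8.52 in CSN8ΔIEC samples, against 8.10, 8.27 and 7.73 in CSN8fl/fl samples. It was higher in every CSN8ΔIEC library, by 0.52 ± 0.16 (adjusted p 0.168 by limma).

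Slc16a3, which exports lactate, had 8.34, 8.42 and 7.76 in CSN8ΔIEC samples, against 8.52, 8.63 and 9.53 in CSN8fl/fl samples. It was lower in every CSN8ΔIEC library, but the third replicates stood apart from the others in opposite directions, and the difference was -0.72 ± 0.28 (adjusted p 0.278 by limma). The sodium-coupled lactate and butyrate carrier gene Slc5a8 differed by -0.38 (0.298) and its low-affinity relative Slc5a12 by 0.51 (0.402). The citrate and succinate carrier gene Slc13a2 differed by 0.39 (0.529) and Slc16a5 by -0.31 (0.546).

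Slc15a1, the apical proton-coupled carrier of di- and tripeptides, was alone in its class. Its signals were 12.37, 12.88 and 12.60 in CSN8ΔIEC samples, against 12.92, 12.66 and 13.32 in CSN8fl/fl samples. The groups overlapped, and the difference was -0.35 ± 0.19 (adjusted p 0.438 by limma), or -0.17 without replicate 3 of CSN8fl/fl.

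Vitamin, choline and haem carriers, 11 members, had a median of -0.17 (-0.12 without replicate 3 of CSN8fl/fl). By limma 0 passed the threshold and 3 had an unadjusted p below 0.05. Slc44a4, a carrier of choline and of thiamine pyrophosphate, had 11.41, 11.69 and 11.55 in CSN8ΔIEC samples, against 11.75, 11.74 and 12.08 in CSN8fl/fl samples. These groups and those of its relative Slc44a3 did not overlap, with differences of -0.31 for each (adjusted p 0.354 and 0.282 by limma).

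The other vitamin carriers had differences of both signs. The riboflavin carrier gene Slc52a3 differed by -0.43 (adjusted p 0.5), and Slc46a3, a lysosomal carrier of the family of the folate importer, by -0.59 (0.406). The ascorbate carrier gene Slc23a1 differed by 0.48 (0.37), the thiamine carrier gene Slc19a2 by 0.38 (0.338), the folate carrier gene Slc19a1 by 0.23 (0.578) and the haem carrier gene Slc48a1 by 0.47 (0.307), all by limma. Slc49a4, of the family of the haem exporters, was lower in every CSN8ΔIEC library, with a difference of -0.32 (0.331).

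Carriers of organic anions and cations, carnitine and bile acids, 11 members, had a median of 0.04 (0.09 without replicate 3 of CSN8fl/fl). By limma 0 passed the threshold and 0 had an unadjusted p below 0.05. The carnitine carrier genes Slc22a5 and Slc22a21 differed by 0.16 (adjusted p 0.582) and 0.23 (0.45), and Slc22a4, a carrier of ergothioneine, by -0.39 (0.339). Slc10a5 and Slc10a7, both of the bile acid carrier family, differed by -0.41 (0.338) and 0.25 (0.464). The lysosomal sialic acid exporter gene Slc17a5 was lower in every CSN8ΔIEC library, with a difference of -0.16 (0.552), and its relative Slc17a4 differed by 0.06 (0.884). The 2 fatty acid carriers, Slc27a2 and Slc27a4, differed by -0.21 (0.505) and -0.13 (0.765), and Slc33a1, which carries acetyl-CoA into the endoplasmic reticulum, by 0.09 (0.773).

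The 3 genes that are not carriers were the Slc4a1-associated Slc4a1ap, with a difference of 0.38 (adjusted p 0.254), the Slc7a6 neighbour Slc7a6os, with 0.13 (0.661), and the scaffold gene Slc9a3r1, with -0.28 (0.486), all by limma. Slc4a1ap reached the level of 8 only through CSN8ΔIEC. Grouped by membrane, the 74 plasma membrane carriers held all 3 members past the threshold. As 72 of the 111 tested members were in this group, that count is not read as a property of it. Their median difference was -0.16, against 0.07 for the 17 carriers of organelles. Without replicate 3 of CSN8fl/fl these medians were -0.07 and -0.02, a smaller distance.

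Leaving out replicate 3 of CSN8fl/fl moved several more of the differences above by over 1.5 times, all of them short of the threshold in both fits. Differences below 0 became -0.39 for Slc7a9, -0.14 for Slc7a7, -0.08 for Slc43a2 and -0.08 for Slc36a1 among the amino acid carriers. They became -0.62 for Slc5a9 and -0.28 for Slc2a7 among the sugar carriers, -0.20 for Slc20a1, -0.28 for Slc9a3 and -0.36 for Slc30a2. For Slc16a3 the difference became -0.40, for Slc16a5 -0.04, for Slc52a3 -0.12, for Slc44a4 -0.19, for Slc22a4 -0.24 and for Slc9a3r1 -0.12. These carriers had their highest value in that library, and their differences shrank without changing sign. Differences above 0 became 0.26 for Slc39a10, 0.27 for Slc48a1 and 0.10 for Slc10a7, and that of Slc13a2 grew to 0.61.

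**Figure D3:**
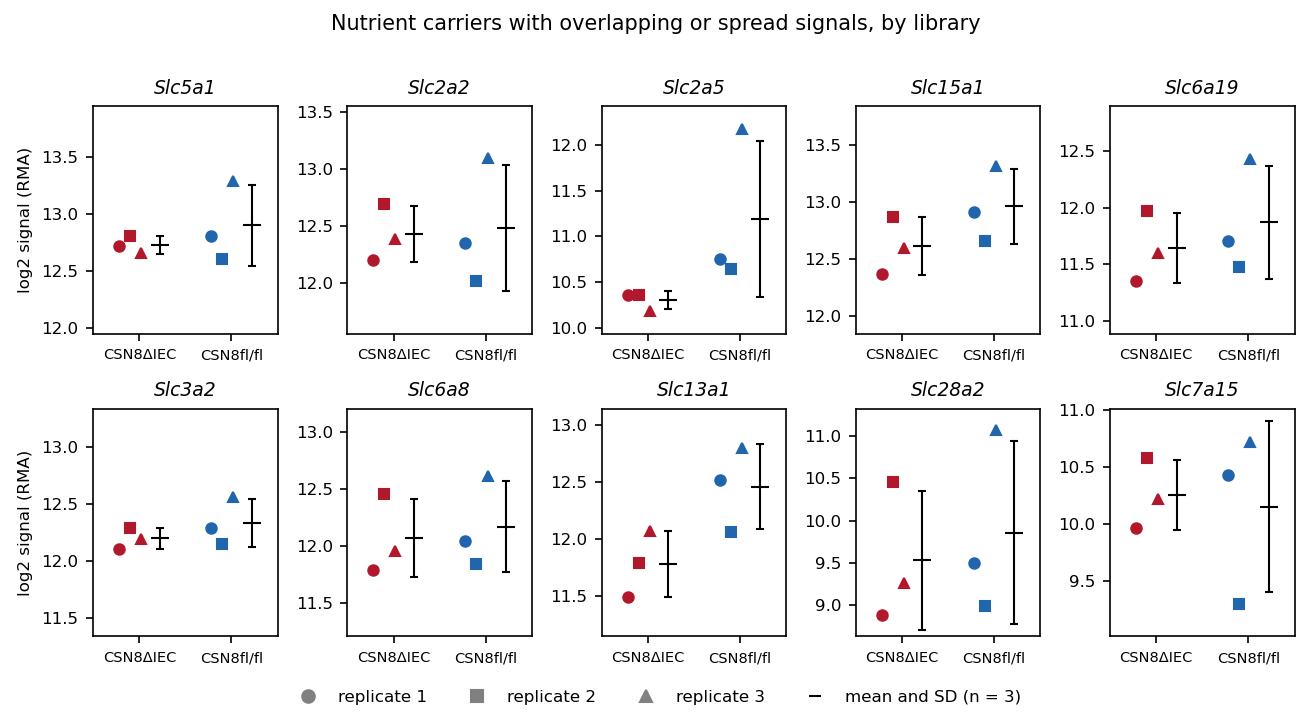
Log2 RMA signal (y axis, own scale for each gene) of 10 nutrient carriers in each CSN8ΔIEC and CSN8fl/fl library, with the mean and SD of each genotype (n = 3). None of them passed the threshold, and replicate 3 of CSN8fl/fl has the highest value in each panel. The 10 genes are a selection, and over all members that library was highest for 57 of 113.

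Carriers were also set against lists by membrane side. Of 30 genes known as apical uptake carriers of absorptive enterocytes, 26 were members and 25 were tested. Of these, 2 fell, which were again Slc6a20a and Slc1a1, 0 rose and 8 had an unadjusted p below 0.05 by limma. Over all genes 0.702% fell and 15.0% had such an unadjusted p. Of the 26, which include Slc28a1, 18 were below 0, with a median of -0.34, and -0.33 over the 25 tested. The range was -2.69 to 0.93, the lowest being Slc28a1 and the highest Slc34a2. Without replicate 3 of CSN8fl/fl, 14 of the 26 were below 0, with a median of -0.04. Their summed linear signal was 45897 to 59588 in CSN8ΔIEC samples, against 51008 to 78772 in CSN8fl/fl samples, so the ranges overlapped.

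Of 16 genes known as basolateral carriers, 11 were members, and by limma 0 passed the threshold and 2 had an unadjusted p below 0.05. The median was -0.14, with 8 below 0, and -0.02 without replicate 3 of CSN8fl/fl. Their summed linear signal was 21669 to 26370 in CSN8ΔIEC samples, against 23498 to 32465 in CSN8fl/fl samples. On both sides of the cell, the carriers' medians lay near 0 once that library was left out.

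**Figure D4:**
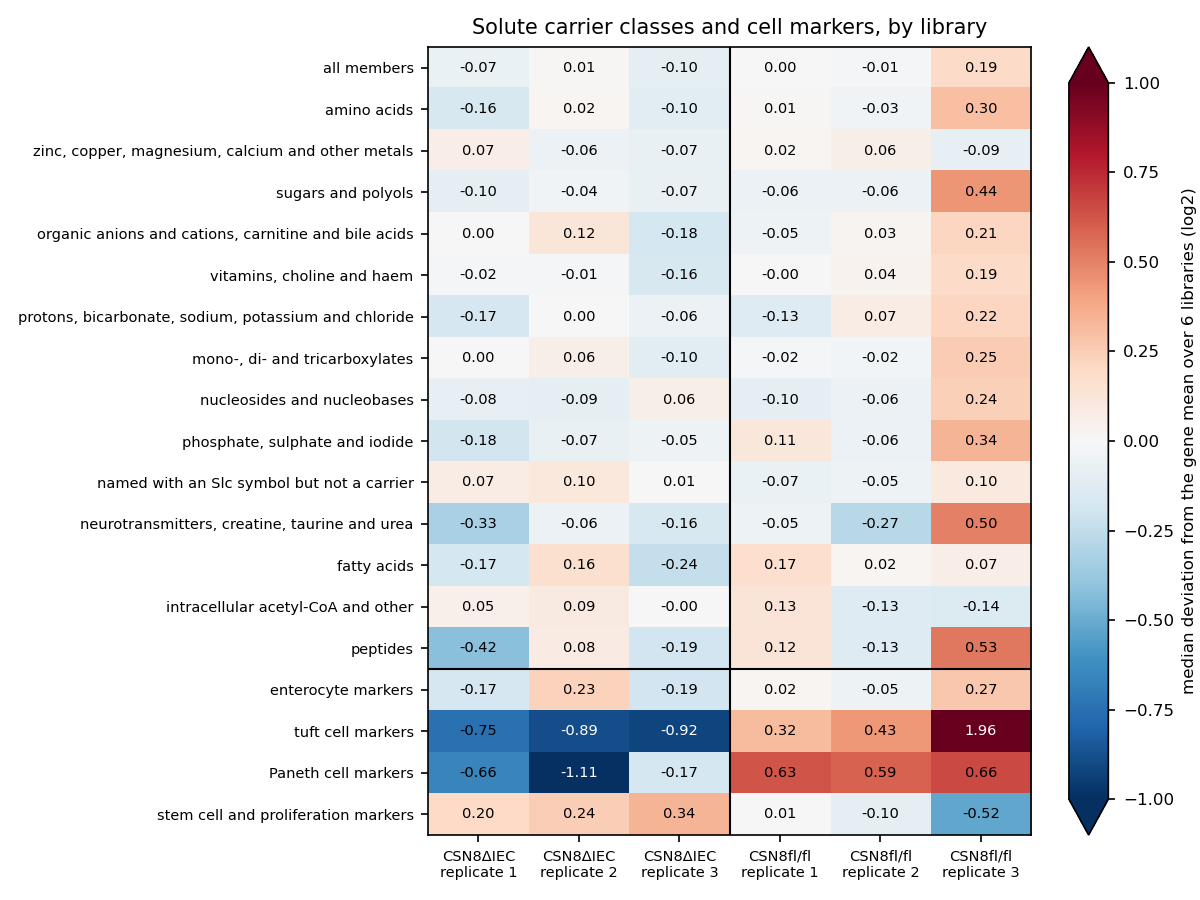
Median deviation from each gene's mean over the 6 libraries (colour and printed value, log2), for each carrier class and 4 lists of cell markers (rows) in each library (columns). The last column, replicate 3 of CSN8fl/fl, is positive in most carrier rows (0.19 over all members, 0.44 for sugars and polyols), and the stem cell and proliferation markers are at -0.52 in it.

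Markers of the cells in the crypt preparation moved with genotype and with that library. Beside the counts below, 15.0% of all genes had an unadjusted p below 0.05 by limma. Of 19 measured enterocyte markers, by limma 0 passed the threshold and 6 had an unadjusted p below 0.05, with a median difference of -0.08, and 0.00 without replicate 3 of CSN8fl/fl. Their summed linear signal was 95648 to 126547 in CSN8ΔIEC samples, against 102555 to 126472 in CSN8fl/fl samples. Of 10 stem cell and proliferation markers, 0 passed and 7 had an unadjusted p below 0.05, and the sum was 12841 to 13208 in CSN8ΔIEC samples, against 7209 to 11206 in CSN8fl/fl samples, the lowest being replicate 3. The sum of 9 T cell and intraepithelial lymphocyte markers was 2410 to 3413 in CSN8ΔIEC samples, against 3100 to 5079 in CSN8fl/fl samples, the highest being replicate 3.

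Of 12 Paneth cell markers 7 fell, with sums of 26749 to 47382 in CSN8ΔIEC samples, against 77543 to 81129 in CSN8fl/fl samples. Of 12 goblet cell markers 5 fell, with sums of 49201 to 54395 in CSN8ΔIEC samples, against 62531 to 70550 in CSN8fl/fl samples. Of 10 tuft cell markers 4 fell, with sums of 941 to 1077 in CSN8ΔIEC samples, against 2131 to 6491 in CSN8fl/fl samples. The highest tuft cell sum was that of replicate 3 of CSN8fl/fl, in which all 10 markers had their highest value. Their median difference was -1.69, and -1.14 without that library. Of 11 enteroendocrine cell markers 2 rose and 1 fell, with sums of 4108 to 4586 in CSN8ΔIEC samples, against 3927 to 4164 in CSN8fl/fl samples. Over all genes 0.702% fell and 0.374% rose. The Paneth, goblet and tuft cell sums were lower in CSN8ΔIEC samples without overlap, and the enteroendocrine sums overlapped. The stem cell and proliferation sums given above did not overlap either, and were higher in CSN8ΔIEC samples. No marker is listed at 0 on these arrays, and the part of cell composition in the carrier differences was not tested.

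Labelled sex and age, which change together, gave no member past the threshold: by limma with genotype in the model, 0 of 113 members passed, beside 0.0154% of all genes, and 6 had an unadjusted p below 0.05 (5.31%, beside 6.16% of all genes). The smallest p-values among members belonged to Slc30a1 (-0.43, labelled male minus labelled female), Slc7a5 (0.41), Slc17a4 (-0.36), Slc13a1 (0.47) and Slc5a9 (0.54), each with an adjusted p of 0.778. A term for a genotype difference unlike between the labelled sexes and ages was past the threshold for 0 members and 0 genes, with 23 members at an unadjusted p below 0.05 (20.4%, beside 10.1% of all genes). Among the tested members the smallest p-values for this term belonged to Slc2a5 (-1.64, adjusted p 0.232 by limma) and Slc16a3 (-1.58, 0.255). Both are genes that replicate 3 sets apart in the values above. With 1 library labelled male in each genotype, that library and the label cannot be told apart.

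The spread between replicates set the limit for many carriers. A pooled SD above 0.3 was found for 31 of the 113 members, while the median over members was 0.22. After Slc28a2 and Slc28a1, the widest were Slc2a5 (0.61) and the amino acid carrier relative Slc7a15 (0.57). Slc7a15 had 9.97, 10.58 and 10.22 in CSN8ΔIEC samples, against 10.43, 9.30 and 10.73 in CSN8fl/fl samples, so that replicate 2 of CSN8fl/fl was the lowest of all. The members with the highest mean probe set signal were Slc5a1, Slc15a1, Slc2a2, Slc3a2 and Slc13a1, a statement about probe sets and not about RNA amounts.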

How the data were processed

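The files hold log2 signals per probe set, made by the authors with RMA and Partek (version 6.6) according to the submitters' processing notes. RMA corrects background, equalises the arrays' distributions and combines probes, so a shift shared by all genes would not be seen. The sources used here do not give the genome build of the array annotation. Of 22206 probe sets on 6 arrays, 19572 carried 1 gene symbol in the platform annotation, 0 several, and 2634 are unnamed here. For 55 genes with several probe sets, none of them members, the one with the highest mean was used, which left 19505 genes.

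The genotypes were compared by limma (version 3.58.1, R version 4.3.3, functions lmFit and eBayes, 8.85 degrees of freedom) as CSN8ΔIEC minus CSN8fl/fl, two-sided, with Benjamini-Hochberg adjustment over all 19505 genes and a threshold of 0.05. Errors in the text are SE of the log2 difference unless named SD, and adjusted p-values in brackets come from this fit. The procedure was tested on simulated data. Members, lists, classes and tests were chosen with earlier results of these data known. Substrate classes and locations are textbook assignments. Named by rule were the members past the threshold, up to 3 of each class by p, the 5 with the highest mean, 5 by p for labelled sex and age, those beside the level of 8, and the 2 added genes. A further 33 genes, among them Cops8, Slc2a5 and Slc5a4a, were named after their values were seen. Deviations of same-numbered samples correlated at 0.117, -0.024 and 0.038, so replicate numbers were not used as pairs. The alternatives tried were 6 that leave out a library and 8 other settings of the fit.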

Additional observations from a re-analysis of the deposited data

How the results depend on the processing

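Of 1092 values (78 tested named genes under 14 alternatives), 1070 kept their direction and their side of the threshold, 5 came to pass it, 2 no longer passed it and 15 changed sign. Members that fell numbered 4 without genes of a mean below 6 (Slc31a1 and Slc6a20b came in, as did Cops8 outside the members). They numbered 3 with eBayes trend (Slc31a1 came in), and 1 to 2 when 1 library was left out. Slc6a20b became a member only through its level in CSN8fl/fl, so its entry is not read as a further fall. Members that rose numbered 2 with the replicate block (Slc34a2 came in, adjusted p 0.031), which changed no other call of a named gene, and 0 to 1 when 1 library was left out. The lower ends came without CSN8ΔIEC replicate 1, where Slc1a1 (0.0601) and Slc5a4b (0.0761) missed the threshold. There 41 of all genes passed, and 109 to 228 did without another library, 299 without genes of a mean below 6, 324 with eBayes trend and 210 with all libraries. The member counts stayed at 2 and 1 with a level of 7 or 9, with the exclusions put back, and for plasma membrane carriers alone. Without CSN8fl/fl replicate 3, a setting chosen after seeing the data for this count, 15 tested members were higher without overlap, against 7 with all libraries. The median of the proton, bicarbonate, sodium, potassium and chloride carriers was -0.299 to -0.023 when 1 library was left out.

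Signs changed for 9 named genes when 1 library was left out: Slc17a4 (-0.056 to 0.21), Slc28a2 (-0.789 to 0.284), Slc2a2 (-0.295 to 0.245, and 0.052 with array weights), Slc30a1 (-0.022 to 0.279), Slc5a1 (-0.322 to 0.022), Slc5a4a (-0.524 to 0.178), Slc6a19 (-0.424 to 0.049), Slc6a8 (-0.295 to 0.123) and Slc7a15 (-0.322 to 0.389). None of the 9 passed the threshold in any of these fits. For 8 of them, all but Slc7a15, leaving out CSN8fl/fl replicate 3 changed the sign, and the cause was not tested. With 6 arrays, small differences of widely spread carriers are beyond what the data resolve.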
